A study of Mus musculus with 10 samples.

Results

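Interferon response genes are described here in mouse bone marrow progenitors that 4 different oncogenes or oncogene pairs had made grow without limit. A list of 39 gene symbols defined the set, and every probe set that carried 1 of these symbols alone was taken. The list gave 59 probe sets for 36 symbols. Ifi44 and Oas1g had no such probe set, and the only probe set of Isg15 also carries the symbol Gm9706, so it was left out. Of the 59 probe sets, 53 passed a filter on low signal (above 369 on at least 3 of the 10 arrays), and these belong to 33 of the 14233 genes with a kept probe set of their own. The other 6 did not pass: the only probe sets of Mx1, Mx2 and Oasl2, and 1 each of Dhx58, Gbp2 and Tap1. Most members lay well inside the filter, since 39 were above it on all 10 arrays. Nearest to the limit, Ifit3 and Rsad2 1421009_at were kept with 4 arrays above it, and Dhx58 1420768_a_at and Gbp2 1435906_x_at were left out with 2.

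The study used Affymetrix Mouse Genome 430 2.0 arrays, which read a transcript through a set of short probes and give 1 signal per probe set. There were 3 clones immortalized by HoxA9 (a homeobox transcription factor), 3 by HoxA9 together with Meis1 (a homeobox cofactor that binds DNA beside it, written HoxA9+Meis1), 3 by NUP98-NSD1 (a nucleoporin fused to a histone methyltransferase) and a single array for MLL-ENL (a fusion of a histone methyltransferase with an elongation factor). All cultures were derived with stem cell factor and without GM-CSF, and no culture is labelled as treated with interferon. No unmodified marrow was among the samples, so the groups can only be set against each other. The labels do not say whether clones came from separate animals, and the p-values may then measure only technical spread between these cultures.

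Type I interferons bind a receptor whose kinases activate the complex ISGF3, which holds STAT2 and IRF9 and binds interferon-stimulated response elements (ISRE) in promoters. Interferon gamma acts through gamma-activated sites (GAS). The genes switched on this way sense viral RNA, degrade it, block translation, tag proteins with ISG15 and raise antigen presentation, and several IRF proteins act on the same elements. In blood progenitors a low level of this programme is known to be present without infection, and some of its regulators, such as Irf8, also steer the choice of lineage.

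Promoter sequence was examined first, because both elements have short recognisable cores. Windows covering the 250 bases before the start of transcription in RefSeq (GRCm38.p6) were available for 34 of the 39 listed genes (43 windows); Dhx58, Mx1, Mx2, Oas2 and Usp18 are without one. The ISRE core searched was GAAANNGAAA (TTTCNNTTTC on the other strand) and the GAS core TTCNNNGAA, which is its own reverse complement. An ISRE core was present in 14 of the 34 genes (41.2%), against 3.46% of all 27025 genes with a window. The 14 were Bst2, Gbp2, Gbp3, Ifit1, Ifit3, Igtp, Irf2, Irgm1, Isg15, Oas1a, Oas1g, Oas3, Rsad2 and Stat2. A GAS core was present in 10 (29.4%), against 8.13% of all genes. A match describes letters in a window and is not a measured binding site.

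The windows below belong to the members that the results turn on: Oas1a and Gbp3, which had the largest falls in HoxA9+Meis1 against HoxA9, and Irf2, which had the largest rise in NUP98-NSD1 against HoxA9. They run 5′ to 3′ on the gene's own strand and end at the base before the start, and capitals mark the ISRE core. In Oas1a, on the minus strand, 2 overlapping cores begin 20 and 14 bases before the start. In Gbp3, on the plus strand, 2 overlapping cores read on the other strand begin 45 and 39 bases before the start. A second Gbp3 window, not shown, holds 0 ISRE cores. In Irf2, on the plus strand, a single core begins 241 bases before the start.
Oas1a, GRCm38.p6 chr5:120907526-120907775, minus strand: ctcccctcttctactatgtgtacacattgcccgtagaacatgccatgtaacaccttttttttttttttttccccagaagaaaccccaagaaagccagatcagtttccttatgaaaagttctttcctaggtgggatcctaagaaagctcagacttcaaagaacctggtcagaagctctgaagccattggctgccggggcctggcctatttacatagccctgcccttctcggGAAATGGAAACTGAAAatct
Gbp3, GRCm38.p6 chr3:142559794-142560043, plus strand: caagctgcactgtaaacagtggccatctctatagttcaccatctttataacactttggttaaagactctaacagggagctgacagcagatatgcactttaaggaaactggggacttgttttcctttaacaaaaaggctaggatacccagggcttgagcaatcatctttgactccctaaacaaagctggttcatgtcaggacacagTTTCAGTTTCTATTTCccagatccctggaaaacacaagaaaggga
Irf2, GRCm38.p6 chr8:46739495-46739744, plus strand: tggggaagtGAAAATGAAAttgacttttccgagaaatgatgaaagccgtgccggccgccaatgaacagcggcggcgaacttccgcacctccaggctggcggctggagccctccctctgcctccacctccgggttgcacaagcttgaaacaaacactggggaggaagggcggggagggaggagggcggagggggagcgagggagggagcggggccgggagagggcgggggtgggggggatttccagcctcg
Tap1 and Psmb9, whose signals fell side by side in NUP98-NSD1, lie head to head, and the 225 bases between their starts hold 0 matches to either core.
Tap1 and Psmb9, GRCm38.p6 chr17:34187331-34187555, read toward Tap1: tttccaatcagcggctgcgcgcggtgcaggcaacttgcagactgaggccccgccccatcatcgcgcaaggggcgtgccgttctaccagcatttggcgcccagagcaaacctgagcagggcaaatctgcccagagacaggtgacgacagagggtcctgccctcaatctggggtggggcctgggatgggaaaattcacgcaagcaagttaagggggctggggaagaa
Ifih1 and Ifit2, which also fell in HoxA9+Meis1, have no ISRE core in their windows, and Ifit2 has a GAS core 241 bases before the start of 1 of its windows.

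Hybridization controls, 18 probe sets for transcripts spiked into each labelled sample, divided the arrays by group. On the log2 scale they averaged 13.18 to 13.42 on the 6 HoxA9 and HoxA9+Meis1 arrays, and 14.01 to 14.13 on the 4 others (NUP98-NSD1, MLL-ENL). The ratio of 3′ to 5′ signal, a sign of RNA integrity and labelling, was 1.09 to 1.17 on those 6 arrays and 1.18 to 1.43 on those 4 for Actb, and 0.777 to 0.836 and 0.849 to 0.932 for Gapdh. Array set and oncogene cannot be told apart when NUP98-NSD1 is set against HoxA9 or HoxA9+Meis1, whereas the pairs HoxA9+Meis1 with HoxA9, and MLL-ENL with NUP98-NSD1, each lie on 1 side of this division. Of 10 markers of myeloid progenitors, 9 were above the filter on every array; Cd34 was at 97.8, 93.9 and 1845 in the HoxA9 clones, against 48216 to 50766 in HoxA9+Meis1. A list of dendritic cell markers (8 of 9 above the filter, Ly6d not), whose cells are known for strong interferon genes, summed to 35967 to 64412 in HoxA9+Meis1 against 7404 to 8920.0 in HoxA9, 7097 to 14249 in NUP98-NSD1 and 9151 in MLL-ENL. Most of this sum was Flt3, at 23470.2 to 34997 in HoxA9+Meis1 and 702 to 1430 in HoxA9, with Tcf4 and Itgax also above all HoxA9 clones, while Zbtb46, Siglech, Xcr1, Cd209d, Ccr9 and Ly6d overlapped between these groups. Monocyte markers (6 of 7 on the array above the filter, Marco not) summed to 131866 in MLL-ENL against 58180 to 87725 on the other arrays. Most of this sum was Ccr2 (76090) and Csf1r (38226), which with Adgre1 (6286) were highest in MLL-ENL. Cd68 was higher in the HoxA9+Meis1 clones than on all other arrays. Cx3cr1 was highest in HoxA9+Meis1 clones 1 and 2, while clone 3 (1593) was below MLL-ENL (2797). Mrc1 was lowest in MLL-ENL, at 304 against 522 to 2221 on the other arrays. Of 5 T and NK cell markers on the array, Cd3e, Cd3g and Cd4 were not above the filter. Cd8a was, at 897 to 2197 over all arrays, and so was Ncr1, at 162 to 664. All 4 B cell, 2 erythroid and 4 stromal and endothelial markers on the array were above it on at least 3 arrays. Cd79b reached 6294 in HoxA9+Meis1 clone 1, and Pecam1 ran from 434 in HoxA9 clone 2 to 8110 in NUP98-NSD1 clone 1. The part of these differences in the results was not tested, and in bulk RNA fewer cells of a type cannot be told apart from less RNA per cell.

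Interferon response genes went both ways in each of the 4 comparisons made (the map of all members by array). Values were compared as log2(signal + 32) with limma over all 30945 kept probe sets, and a member counts as called, or as changed, where its p was under 0.05 after Benjamini-Hochberg adjustment over all of them. Between NUP98-NSD1 and HoxA9, 20 of the 53 members were called, 9 higher and 11 lower; the background was 29.0% of all probe sets called, 12.3% higher and 16.7% lower. Between NUP98-NSD1 and HoxA9+Meis1, 21 were called, 10 higher and 11 lower, with a background of 30.9% (13.8% higher, 17.2% lower). Between HoxA9+Meis1 and HoxA9, 6 were called, 2 higher and 4 lower, where 6.89% of all probe sets were called (3.40% higher, 3.49% lower). Between MLL-ENL and NUP98-NSD1, 3 were called, 1 higher and 2 lower, with 3.98% called in all (1.18% higher, 2.80% lower). The median log2 difference of the members was 0.04, 0.19, -0.11 and -0.01 in these comparisons, beside -0.14, -0.13, -0.02 and -0.07 over all probe sets. In the first 2 comparisons, all probe sets dimmer than the median signal had medians of -0.35 and -0.31, and brighter ones -0.02 and -0.01. For members split at the same signal these were 0.42 and 0.38 for dimmer ones, and -0.12 and -0.01 for brighter ones. Shifting the arrays to a common median moved the medians over all probe sets to 0.05, 0.02, 0.01 and 0.22; 11 members were then higher and 10 lower than in HoxA9 (background 14.4% and 7.99%), and 12 higher and 8 lower than in HoxA9+Meis1 (14.5% and 9.28%). The first 3 comparisons share arrays, and the last uses the same NUP98-NSD1 arrays as the first 2. Their values stand side by side and are not independent.

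**Figure D1:**
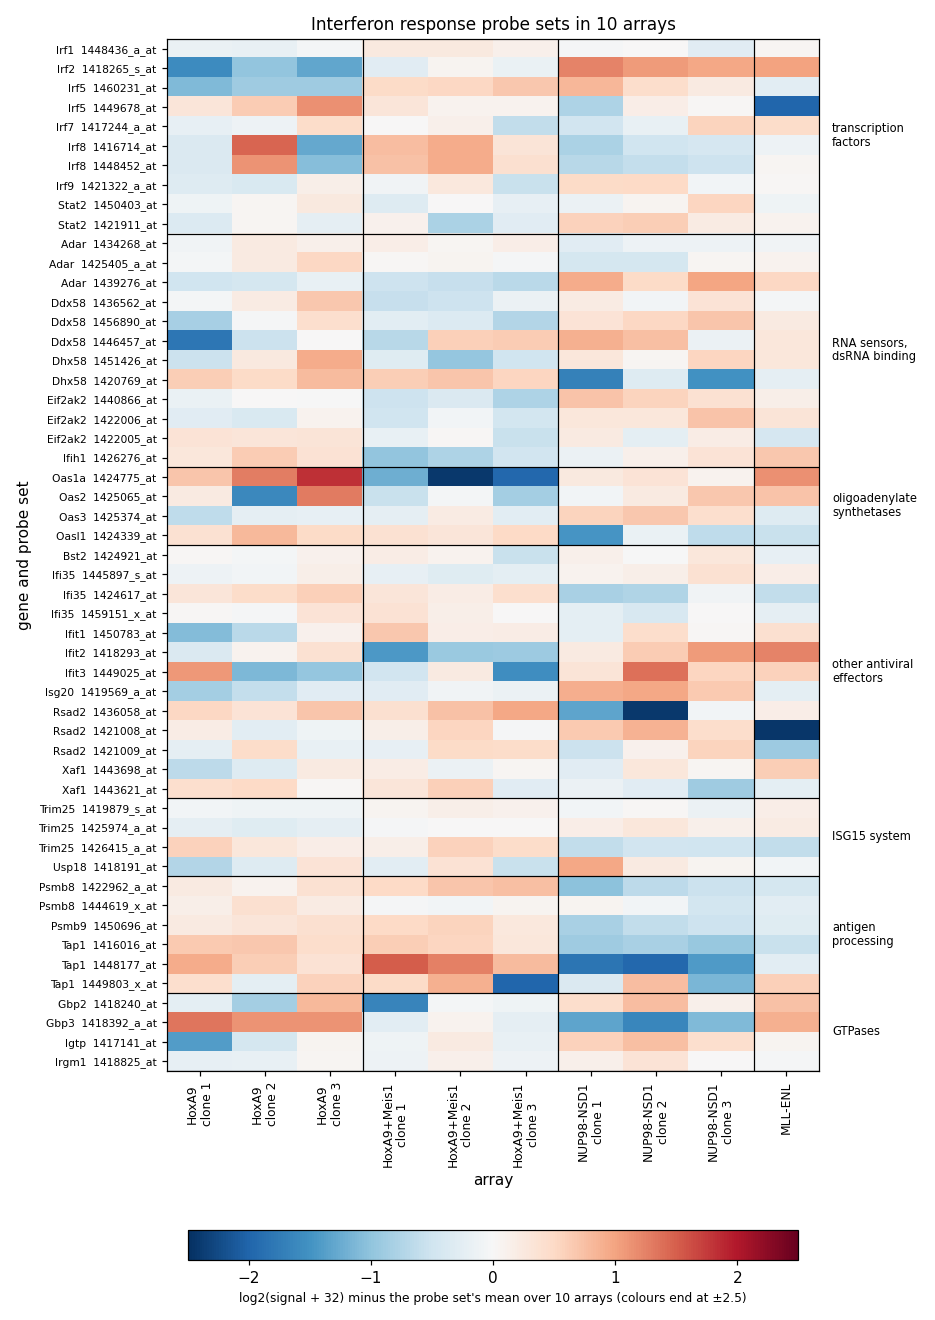
Signal of the 53 kept probe sets of the interferon response genes (rows, grouped by role) on the 10 arrays (columns, grouped by oncogene), as log2(signal + 32) minus the row mean, with colours ending at -2.5 and 2.5. Rows of 1 role often point in opposite directions, and rows such as Tap1 1448177_at, Gbp3, Oas1a and Irf2 change colour between groups.

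By gene, 17 of the 33 had a called probe set between NUP98-NSD1 and HoxA9: 7 were higher, 9 lower and Trim25 had 1 probe set each way. Between NUP98-NSD1 and HoxA9+Meis1 the count was 18, with 8 higher, 9 lower and Ifi35 called both ways. The share of all genes with a called probe set was not computed, and 13 of the 33 have more than 1 kept probe set. With 1 probe set per gene, 6 members were higher and 7 lower than in HoxA9, beside 13.3% and 18.2% of all. Against HoxA9+Meis1 they were 7 and 7, beside 14.2% and 18.2%. Ranges of the clones did not overlap for 27 members (50.9%) in the first comparison, beside 43.8% of all probe sets, and for 33 (62.3%) in the second, beside 45.0%. Between HoxA9+Meis1 and HoxA9 they did not overlap for 17 (32.1%, beside 28.6%). The median SE of a member's log2 difference was 0.22 in these comparisons and 0.31 for the single MLL-ENL array. A member that was not called can still differ, as the intervals given beside such members show. MLL-ENL was outside the range of the NUP98-NSD1 clones for 33 members (62.3%), beside 56.6% of all probe sets.

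**Figure D2:**
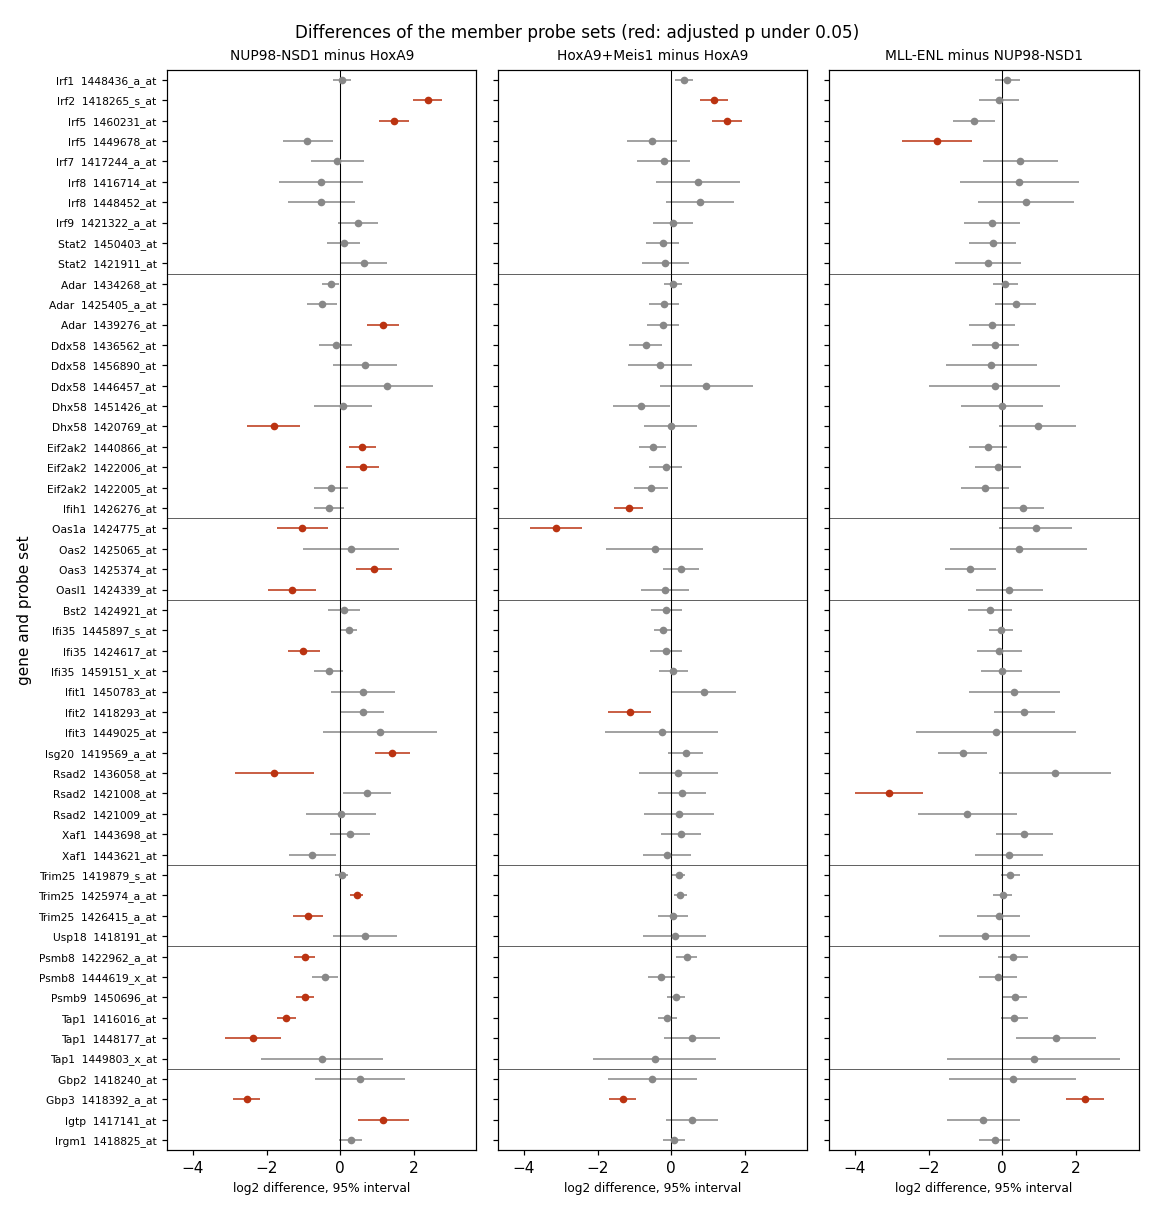
Log2 difference of each kept probe set with its 95% interval from the limma fit, for NUP98-NSD1 minus HoxA9, HoxA9+Meis1 minus HoxA9 and MLL-ENL minus NUP98-NSD1, with probe sets called at an adjusted p under 0.05 in red. Calls lie on both sides of 0 in all 3 panels, and 20, 6 and 3 of the 53 are red.

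Among the transcription factors, Irf2 and Irf5 were higher in NUP98-NSD1 and in HoxA9+Meis1 than in HoxA9, and no factor was called lower than in HoxA9. Of 10 probe sets of 7 genes, 2 were higher in NUP98-NSD1 than in HoxA9 and 2 in HoxA9+Meis1 than in HoxA9. The share called was 20.0% in each of these, beside 29.0% and 6.89% of all probe sets. It was also 20.0% in NUP98-NSD1 against HoxA9+Meis1, beside 30.9%. Against HoxA9+Meis1, NUP98-NSD1 had 1 higher (Irf2) and 1 lower (Irf8), and MLL-ENL had 1 lower than NUP98-NSD1 (Irf5).

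Irf2 binds the same elements as Irf1 and mostly represses them. Its signals were 860.3, 1308 and 1052 in the HoxA9 clones, 2148, 2769 and 2337 in the HoxA9+Meis1 clones, 6244, 5548 and 5212 in the NUP98-NSD1 clones and 5311 in MLL-ENL. The groups formed 3 separate steps, HoxA9 lowest, HoxA9+Meis1 between and NUP98-NSD1 highest, with MLL-ENL within the NUP98-NSD1 range. The mean was 1073 ± 224 (SD, n = 3) in HoxA9, 2418 ± 318 (SD, n = 3) in HoxA9+Meis1 and 5668 ± 526 (SD, n = 3) in NUP98-NSD1. Irf2 rose 5.21-fold in NUP98-NSD1 against HoxA9 (log2 2.38, SE 0.18, adjusted p = 2.59e-05), 2.33-fold against HoxA9+Meis1 (log2 1.22, SE 0.18, adjusted p = 0.000736) and 2.24-fold in HoxA9+Meis1 against HoxA9 (log2 1.16, SE 0.18, adjusted p = 0.00321). The probe set 1418265_s_at has a suffix that marks probes shared with other transcripts. The MLL-ENL value lay log2 -0.09 from NUP98-NSD1 (95% interval -0.64 to 0.46, adjusted p = 0.894).

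Irf5 acts downstream of Toll-like receptors. It has 2 kept probe sets that part ways, and they are shown because of this, after their values had been seen. On 1460231_at the signals were 908, 1058 and 1061 in the HoxA9 clones, 2771, 2879 and 3205 in the HoxA9+Meis1 clones, 3562, 2711 and 2317 in the NUP98-NSD1 clones and 1643 in MLL-ENL. All HoxA9 clones were low, and the 3 HoxA9+Meis1 clones lay inside the span of the NUP98-NSD1 clones. It was 2.74-fold higher in NUP98-NSD1 than in HoxA9 (log2 1.46, SE 0.18, adjusted p = 0.000367) and 2.87-fold higher in HoxA9+Meis1 than in HoxA9 (log2 1.52, SE 0.18, adjusted p = 0.000793). On 1449678_at the signals were 1154, 1468 and 2097 in the HoxA9 clones, 1165, 999.9 and 989 in the HoxA9+Meis1 clones, 533, 1046 and 946 in the NUP98-NSD1 clones and 214 in MLL-ENL. Here HoxA9 clones held the 2 highest values, and the difference of NUP98-NSD1 from HoxA9 was -0.89 (95% interval -1.56 to -0.21, adjusted p = 0.0504); it was called without HoxA9 clone 1 (-1.09), NUP98-NSD1 clone 2 (-1.07) or NUP98-NSD1 clone 3. MLL-ENL lay below the filter on this probe set and was at least 2.1-fold lower than NUP98-NSD1 (fitted log2 -1.78, SE 0.43, adjusted p = 0.0487), a call lost without NUP98-NSD1 clone 2 (-1.60) or NUP98-NSD1 clone 3 (-1.67), and also with quantile normalization, a common median, an offset of 100, no filter or no intensity trend. On 1460231_at MLL-ENL differed from NUP98-NSD1 by -0.77 (adjusted p = 0.132), and it was called without NUP98-NSD1 clone 3 (-0.91).

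Irf8, which drives monocyte and dendritic cell fate, varied more between HoxA9 clones than between groups. On its brighter probe set, 1416714_at, the signals were 10516, 37055 and 5520.4 in the HoxA9 clones, 22835, 25575 and 16731 in the HoxA9+Meis1 clones, 7745, 9434 and 9985 in the NUP98-NSD1 clones and 12367 in MLL-ENL. The HoxA9 clones alone spanned the range of all other arrays, with clone 2 highest of all 10 and clone 3 lowest. The second probe set, 1448452_at, had the same order among the HoxA9 clones, with 9867, 27601 and 6054, beside 21078, 24056 and 16604 in HoxA9+Meis1, 7824, 8316 and 8847 in NUP98-NSD1 and 13072 in MLL-ENL. On it NUP98-NSD1 was 2.44-fold lower than HoxA9+Meis1 (log2 -1.29, SE 0.41, adjusted p = 0.0381), with no overlap of the clones; the call was lost without HoxA9+Meis1 clone 1 (-1.26), HoxA9+Meis1 clone 2 (-1.17), HoxA9+Meis1 clone 3 (-1.43), NUP98-NSD1 clone 1 (-1.24), NUP98-NSD1 clone 2 (-1.29) or NUP98-NSD1 clone 3 (-1.33), with arrays shifted to a common median and with no intensity trend. HoxA9+Meis1 against HoxA9 gave 0.73 (adjusted p = 0.539) and 0.78 (adjusted p = 0.358); the first was called without HoxA9 clone 2 (1.48) and so was the second (1.39).

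The remaining factors were not called in any comparison. Irf1, the activator that Irf2 competes with, had signals of 5815, 5730.2 and 6255 in the HoxA9 clones, 7747, 7747 and 7136 in the HoxA9+Meis1 clones, 6407, 6581 and 5374 in the NUP98-NSD1 clones and 6741 in MLL-ENL. HoxA9+Meis1 held the highest values, log2 0.34 from HoxA9 (95% interval 0.11 to 0.58, adjusted p = 0.0917). Irf7, the factor that amplifies interferon production, had signals of 903, 947 and 1442 in the HoxA9 clones, 1051, 1132 and 667 in the HoxA9+Meis1 clones, 733, 911 and 1554 in the NUP98-NSD1 clones and 1439 in MLL-ENL. Its clones overlapped between groups, and NUP98-NSD1 minus HoxA9 was -0.08 (95% interval -0.80 to 0.64, adjusted p = 0.876). Irf9, the DNA-binding part of ISGF3, had signals of 2176, 2094 and 3039.7 in the HoxA9 clones, 2559, 3261 and 1834 in the HoxA9+Meis1 clones, 3828, 3877 and 2603 in the NUP98-NSD1 clones and 2773 in MLL-ENL. NUP98-NSD1 minus HoxA9 was 0.49 (95% interval -0.05 to 1.02, adjusted p = 0.154), with NUP98-NSD1 clone 3 inside the range of HoxA9. Stat2, its partner, had signals of 1737, 1941 and 2211 in the HoxA9 clones, 1489, 1890.1 and 1627 in the HoxA9+Meis1 clones, 1679, 1956 and 2739.9 in the NUP98-NSD1 clones and 1728 in MLL-ENL on its brighter probe set, and all groups overlapped. On 1421911_at, Stat2 in NUP98-NSD1 minus HoxA9+Meis1 was 0.80 (adjusted p = 0.0563), and it was called without HoxA9+Meis1 clone 1 (1.01) or NUP98-NSD1 clone 3 (0.93).

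Among the RNA sensors, 5 genes with 12 kept probe sets, the calls were mixed. Against HoxA9, NUP98-NSD1 had 3 higher and 1 lower (33.3%, beside 29.0% of all probe sets). Against HoxA9+Meis1 it had 4 higher and 1 lower (41.7%, beside 30.9%). In HoxA9+Meis1 against HoxA9 the share called was 8.33%, beside 6.89%. HoxA9+Meis1 had 1 lower than HoxA9, and MLL-ENL had 0 called by limma against NUP98-NSD1 (0 also at an unadjusted p under 0.05). The median log2 difference of the 12 was -0.02, 0.67, -0.26 and -0.15 in these comparisons.

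Ifih1 (MDA5), which senses long viral RNA, had signals of 3724, 4769 and 3939 in the HoxA9 clones, 1529, 1799.6 and 2194 in the HoxA9+Meis1 clones, 2758, 3357 and 3912 in the NUP98-NSD1 clones and 4907 in MLL-ENL. The 3 HoxA9+Meis1 clones were below all other clones and below MLL-ENL. Ifih1 fell 2.24-fold in HoxA9+Meis1 against HoxA9 (log2 -1.16, SE 0.18, adjusted p = 0.00362) and was 1.8-fold higher in NUP98-NSD1 than in HoxA9+Meis1 (log2 0.85, SE 0.18, adjusted p = 0.00581). Ddx58 (RIG-I), which senses short RNA with a triphosphate end, was not called on any of 3 probe sets. On its brightest, 1436562_at, the signals were 2910.2, 3433 and 4779 in the HoxA9 clones, 1992, 2075 and 2695 in the HoxA9+Meis1 clones, 3451, 2849 and 3792 in the NUP98-NSD1 clones and 2907 in MLL-ENL. HoxA9+Meis1 was again lowest, -0.69 from HoxA9 (95% interval -1.14 to -0.24, adjusted p = 0.0725), and it was called without HoxA9 clone 1 (-0.85). NUP98-NSD1 minus HoxA9+Meis1 was 0.57 (adjusted p = 0.0534), called without HoxA9+Meis1 clone 3 (0.71) or NUP98-NSD1 clone 2 (0.69).

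Dhx58 (LGP2), a relative without signalling domains that tunes the other sensors, fell on 1 probe set in NUP98-NSD1. On 1420769_at the signals were 1479, 1345 and 1668 in the HoxA9 clones, 1473, 1562 and 1383 in the HoxA9+Meis1 clones, 272, 755 and 312 in the NUP98-NSD1 clones and 811 in MLL-ENL. All NUP98-NSD1 clones were below all HoxA9 and HoxA9+Meis1 clones, and 2 of the 3 were below the filter. It was 3.51-fold lower in NUP98-NSD1 than in HoxA9 (log2 -1.81, SE 0.33, adjusted p = 0.00302) and 3.46-fold lower than in HoxA9+Meis1 (log2 -1.79, SE 0.33, adjusted p = 0.00289); with the values below the filter raised to it the folds were 3.03 and 2.99. The other kept probe set, 1451426_at, did not follow it: its signals were 649.7, 1135 and 1832 in the HoxA9 clones, 765, 469 and 659 in the HoxA9+Meis1 clones, 1160.2, 980.2 and 1393 in the NUP98-NSD1 clones and 1161 in MLL-ENL, and NUP98-NSD1 minus HoxA9 was 0.07 (95% interval -0.71 to 0.85, adjusted p = 0.898).

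Eif2ak2 (PKR), the kinase that halts translation on binding double-stranded RNA, was higher in NUP98-NSD1 on 2 of its 3 probe sets. On 1440866_at the signals were 1752, 1985 and 1964 in the HoxA9 clones, 1363, 1514 and 1146 in the HoxA9+Meis1 clones, 3234, 2912 and 2569 in the NUP98-NSD1 clones and 2190.1 in MLL-ENL. On 1422006_at they were 1569.9, 1462 and 2027 in the HoxA9 clones, 1336, 1819 and 1383 in the HoxA9+Meis1 clones, 2330.1, 2324 and 3159 in the NUP98-NSD1 clones and 2386 in MLL-ENL. On both the NUP98-NSD1 clones and MLL-ENL were above all other arrays. Against HoxA9, 1440866_at was 1.52-fold higher (log2 0.60, SE 0.17, adjusted p = 0.0209), a call lost without HoxA9 clone 1 (0.54), NUP98-NSD1 clone 1 (0.52) or NUP98-NSD1 clone 2 (0.59); 1422006_at was 1.53-fold higher (log2 0.62, SE 0.20, adjusted p = 0.0424), a call lost without HoxA9 clone 1 (0.57), HoxA9 clone 2 (0.52), NUP98-NSD1 clone 1 (0.69), NUP98-NSD1 clone 2 (0.69) or NUP98-NSD1 clone 3 (0.47), and also with no filter or no intensity trend. Against HoxA9+Meis1 they were 2.14-fold (log2 1.10, SE 0.17, adjusted p = 0.000923) and 1.7-fold higher (log2 0.77, SE 0.20, adjusted p = 0.016), and the second call was lost without HoxA9+Meis1 clone 1 (0.69) or HoxA9+Meis1 clone 3 (0.71). The third probe set, 1422005_at, had signals of 1734, 1687 and 1714 in the HoxA9 clones, 1203, 1392 and 928 in the HoxA9+Meis1 clones, 1615, 1157 and 1568 in the NUP98-NSD1 clones and 1019 in MLL-ENL, with the NUP98-NSD1 clones below the HoxA9 clones; NUP98-NSD1 minus HoxA9 was -0.25 (95% interval -0.72 to 0.21, adjusted p = 0.389).

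Adar edits adenosines in double-stranded RNA. Its dimmest probe set, 1439276_at, had signals of 904, 945 and 1136 in the HoxA9 clones, 888, 854 and 796 in the HoxA9+Meis1 clones, 2483, 1820.4 and 2575 in the NUP98-NSD1 clones and 1867 in MLL-ENL. All 4 NUP98-NSD1 and MLL-ENL arrays were above the other 6. It was 2.25-fold higher in NUP98-NSD1 than in HoxA9 (log2 1.17, SE 0.20, adjusted p = 0.00209) and 2.62-fold higher than in HoxA9+Meis1 (log2 1.39, SE 0.20, adjusted p = 0.000723). The other 2 probe sets had differences on the other side of 0 against HoxA9: -0.26 on 1434268_at (adjusted p = 0.097), called without HoxA9 clone 1 (-0.35), and -0.50 on 1425405_a_at (adjusted p = 0.0598), called without HoxA9 clone 1 (-0.64) or NUP98-NSD1 clone 3 (-0.67).

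The oligoadenylate synthetases make the small messenger that switches on RNase L, which cuts RNA. Oas1a showed the largest difference of any member between HoxA9+Meis1 and HoxA9. Its signals were 5403, 8209 and 11888 in the HoxA9 clones, 1419, 604 and 835 in the HoxA9+Meis1 clones, 3967, 4274 and 3568 in the NUP98-NSD1 clones and 7399 in MLL-ENL. The 3 groups of clones did not overlap, with HoxA9 highest, NUP98-NSD1 between and HoxA9+Meis1 lowest, and MLL-ENL lay within the HoxA9 range. Oas1a fell 8.74-fold in HoxA9+Meis1 against HoxA9 (log2 -3.13, SE 0.32, adjusted p = 0.000283). NUP98-NSD1 was 4.26-fold above HoxA9+Meis1 (log2 2.09, SE 0.32, adjusted p = 0.000949) and 2.05-fold below HoxA9 (log2 -1.04, SE 0.32, adjusted p = 0.0319). The last call was lost without HoxA9 clone 2 (-1.02), HoxA9 clone 3 (-0.76), NUP98-NSD1 clone 1 (-1.04), NUP98-NSD1 clone 2 (-1.10) or NUP98-NSD1 clone 3 (-0.97), and also with arrays shifted to a common median or with no intensity trend; the first 2 held without each clone in turn. Mice carry several near-identical Oas1 copies, so part of this signal can belong to a neighbour.

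Oas3 had signals of 692, 929 and 950.3 in the HoxA9 clones, 935, 1263 and 908 in the HoxA9+Meis1 clones, 1629, 1764 and 1479 in the NUP98-NSD1 clones and 873 in MLL-ENL. The NUP98-NSD1 clones were above all others, 1.88-fold above HoxA9 (log2 0.91, SE 0.22, adjusted p = 0.0121) and 1.56-fold above HoxA9+Meis1 (log2 0.65, SE 0.22, adjusted p = 0.0476), where the call was lost without HoxA9+Meis1 clone 1 (0.58), HoxA9+Meis1 clone 3 (0.56), NUP98-NSD1 clone 1 (0.64) or NUP98-NSD1 clone 2 (0.59), and also with no filter or with 1 probe set per gene. Oasl1, a relative that lacks the synthetase activity, went the other way. Its signals were 1963, 2681 and 2109 in the HoxA9 clones, 1967, 1864 and 2133 in the HoxA9+Meis1 clones, 525, 1332 and 965 in the NUP98-NSD1 clones and 1008 in MLL-ENL. It was 2.48-fold lower in NUP98-NSD1 than in HoxA9 (log2 -1.31, SE 0.29, adjusted p = 0.0079) and 2.21-fold lower than in HoxA9+Meis1 (log2 -1.15, SE 0.29, adjusted p = 0.0138), with no overlap; the latter call was lost with arrays shifted to a common median. Oas2 had signals of 1077, 277 and 2291 in the HoxA9 clones, 615, 888 and 492 in the HoxA9+Meis1 clones, 866, 1075 and 1469 in the NUP98-NSD1 clones and 1523 in MLL-ENL and was not called in any comparison; HoxA9 clones 2 and 3 were its lowest and highest arrays among the clones.

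**Figure D3:**
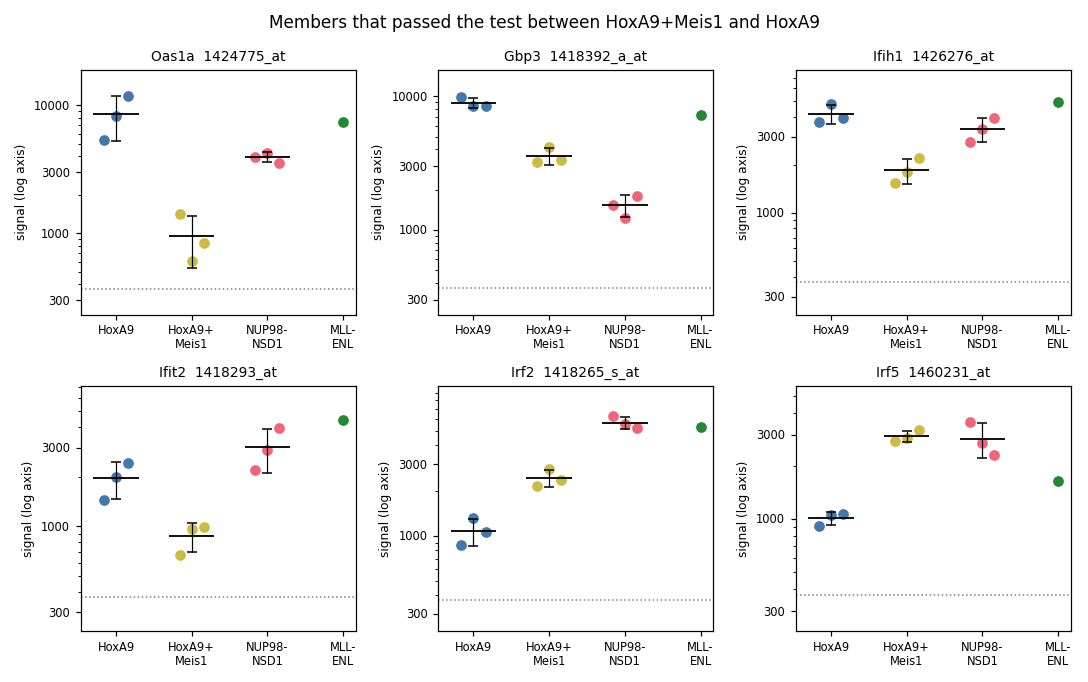
Deposited signal (log axis) of Oas1a, Gbp3, Ifih1, Ifit2, Irf2 and Irf5 1460231_at by oncogene group: points are arrays, horizontal lines group means, bars the SD of 3 clones, and the dotted line the filter level of 369. Oas1a, Gbp3, Ifih1 and Ifit2 are lower in HoxA9+Meis1 than in HoxA9, and Irf2 and Irf5 are higher.

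The ISG15 system attaches a small ubiquitin-like protein to others. Trim25, a ligase for ISG15 and a cofactor of RIG-I, was called in both directions. On 1425974_a_at the signals were 9675, 9113 and 9623 in the HoxA9 clones, 11015, 11440.0 and 11405 in the HoxA9+Meis1 clones, 12707, 13812 and 12269.7 in the NUP98-NSD1 clones and 13019.8 in MLL-ENL, and NUP98-NSD1 was 1.36-fold above HoxA9 (log2 0.45, SE 0.08, adjusted p = 0.00326). On 1426415_a_at they were 2395, 1930.4 and 1789 in the HoxA9 clones, 1751, 2379 and 2184 in the HoxA9+Meis1 clones, 1026, 1136 and 1119 in the NUP98-NSD1 clones and 1018 in MLL-ENL, and NUP98-NSD1 was 1.83-fold below HoxA9 (log2 -0.87, SE 0.19, adjusted p = 0.00655) and 1.88-fold below HoxA9+Meis1 (log2 -0.91, SE 0.19, adjusted p = 0.00459). The clones did not overlap on either probe set, so the direction of Trim25 depends on which is read. The third, 1419879_s_at, gave 0.04 against HoxA9 (95% interval -0.14 to 0.22, adjusted p = 0.77). Usp18, the protease that removes ISG15 and damps the interferon receptor, had signals of 336, 458 and 742 in the HoxA9 clones, 481, 751 and 383 in the HoxA9+Meis1 clones, 1167, 682 and 607 in the NUP98-NSD1 clones and 553 in MLL-ENL and was not called, at 0.66 for NUP98-NSD1 minus HoxA9 (95% interval -0.21 to 1.53, adjusted p = 0.232).

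Other antiviral effectors, 8 genes with 13 kept probe sets, were called about as often as all probe sets in NUP98-NSD1 and HoxA9+Meis1 against HoxA9. In NUP98-NSD1 1 was higher and 2 were lower than in HoxA9 (23.1%, beside 29.0% of all), and in HoxA9+Meis1 1 was lower (7.69%, beside 6.89%). Against HoxA9+Meis1, NUP98-NSD1 had 3 higher and 2 lower (38.5%, beside 30.9%). The median log2 difference of the 13 was 0.23, 0.06 and -0.01 in these 3 comparisons.

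Ifit2, which binds viral RNA and blocks its translation, had signals of 1447, 1982 and 2416 in the HoxA9 clones, 666, 961 and 982 in the HoxA9+Meis1 clones, 2178, 2888 and 3952 in the NUP98-NSD1 clones and 4435 in MLL-ENL. HoxA9+Meis1 was lowest in every clone. Ifit2 was 3.32-fold higher in NUP98-NSD1 than in HoxA9+Meis1 (log2 1.73, SE 0.26, adjusted p = 0.00101). In HoxA9+Meis1 it fell 2.18-fold against HoxA9 (log2 -1.13, SE 0.26, adjusted p = 0.0283), a call lost without HoxA9 clone 2 (-1.10), HoxA9 clone 3 (-0.96), HoxA9+Meis1 clone 1 (-0.95) or HoxA9+Meis1 clone 2 (-1.21), with arrays shifted to a common median and with no intensity trend. The related Ifit1 had signals of 183, 254 and 456 in the HoxA9 clones, 696, 479 and 486 in the HoxA9+Meis1 clones, 355, 584 and 431 in the NUP98-NSD1 clones and 569 in MLL-ENL, with no call. HoxA9+Meis1 lay above HoxA9 there, with a difference of 0.90 (95% interval 0.02 to 1.77, adjusted p = 0.248). Ifit3 was above the filter on 4 arrays alone and was not called.

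Isg20, an exonuclease of single-stranded RNA, had signals of 587, 713 and 892 in the HoxA9 clones, 886, 1019 and 976 in the HoxA9+Meis1 clones, 2064, 2148 and 1724 in the NUP98-NSD1 clones and 916 in MLL-ENL. All NUP98-NSD1 clones were above all others. It rose 2.66-fold against HoxA9 (log2 1.41, SE 0.22, adjusted p = 0.00112) and 2.02-fold against HoxA9+Meis1 (log2 1.01, SE 0.22, adjusted p = 0.00573). MLL-ENL lay -1.08 from NUP98-NSD1 (adjusted p = 0.0797), within the range of HoxA9+Meis1, and was called without NUP98-NSD1 clone 3 (-1.17).

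Rsad2 (viperin), an enzyme that makes a chain-ending nucleotide, has 3 kept probe sets, and its values are shown on 2 that disagree, chosen after the values had been seen. On 1436058_at the signals were 989, 874 and 1125 in the HoxA9 clones, 913, 1155 and 1371 in the HoxA9+Meis1 clones, 254, 102 and 648 in the NUP98-NSD1 clones and 766 in MLL-ENL. NUP98-NSD1 was lowest, with 2 of 3 clones below the filter, and fell 3.45-fold against HoxA9 (log2 -1.79, SE 0.49, adjusted p = 0.0203) and 3.92-fold against HoxA9+Meis1 (log2 -1.97, SE 0.49, adjusted p = 0.0122); with the values below the filter raised to it the folds were 2.14 and 2.43. The first call was lost without HoxA9 clone 1 (-1.79) or HoxA9 clone 3 (-1.70), and without NUP98-NSD1 clone 3 the differences were -2.38 and -2.57. MLL-ENL minus NUP98-NSD1 on it was 1.43 (adjusted p = 0.301), called without NUP98-NSD1 clone 3 (2.03). On 1421008_at the signals were 632, 453 and 509.6 in the HoxA9 clones, 610.2, 816 and 543 in the HoxA9+Meis1 clones, 892, 1033 and 757 in the NUP98-NSD1 clones and 76.2 in MLL-ENL. NUP98-NSD1 was highest in 2 of its clones, and 0.72 from HoxA9 (95% interval 0.07 to 1.37, adjusted p = 0.0915). MLL-ENL, below the filter there, was at least 2.29-fold lower than NUP98-NSD1 (fitted log2 -3.09, SE 0.42, adjusted p = 0.00437).

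Ifi35, a leucine zipper protein of the innate response, was called both ways between NUP98-NSD1 and HoxA9+Meis1. On 1445897_s_at the signals were 9866, 10337 and 11898 in the HoxA9 clones, 9439, 8821 and 9139 in the HoxA9+Meis1 clones, 11503, 12039 and 14041 in the NUP98-NSD1 clones and 12191 in MLL-ENL, and NUP98-NSD1 was 1.37-fold higher (log2 0.45, SE 0.11, adjusted p = 0.00976). On 1424617_at they were 3465, 3888 and 4249 in the HoxA9 clones, 3483, 3181 and 3784 in the HoxA9+Meis1 clones, 1595, 1656 and 2655 in the NUP98-NSD1 clones and 1812 in MLL-ENL, and NUP98-NSD1 was 1.8-fold lower (log2 -0.85, SE 0.20, adjusted p = 0.00866) and 2-fold lower than HoxA9 (SE 0.20 on the log2 scale, adjusted p = 0.00425). The clones did not overlap on either, and the fall against HoxA9+Meis1 was not called with arrays shifted to a common median. Bst2 (tetherin), which holds budding virus at the cell surface, was not called; its signals were 2796, 2657 and 2962 in the HoxA9 clones, 3121, 2914 and 1850.3 in the HoxA9+Meis1 clones, 2994, 2734 and 3328 in the NUP98-NSD1 clones and 2388 in MLL-ENL. Xaf1, a partner of XIAP, was not called on either of 2 probe sets, which differed in sign for NUP98-NSD1 minus HoxA9 (0.26 on 1443698_at and -0.76 on 1443621_at).

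**Figure D4:**
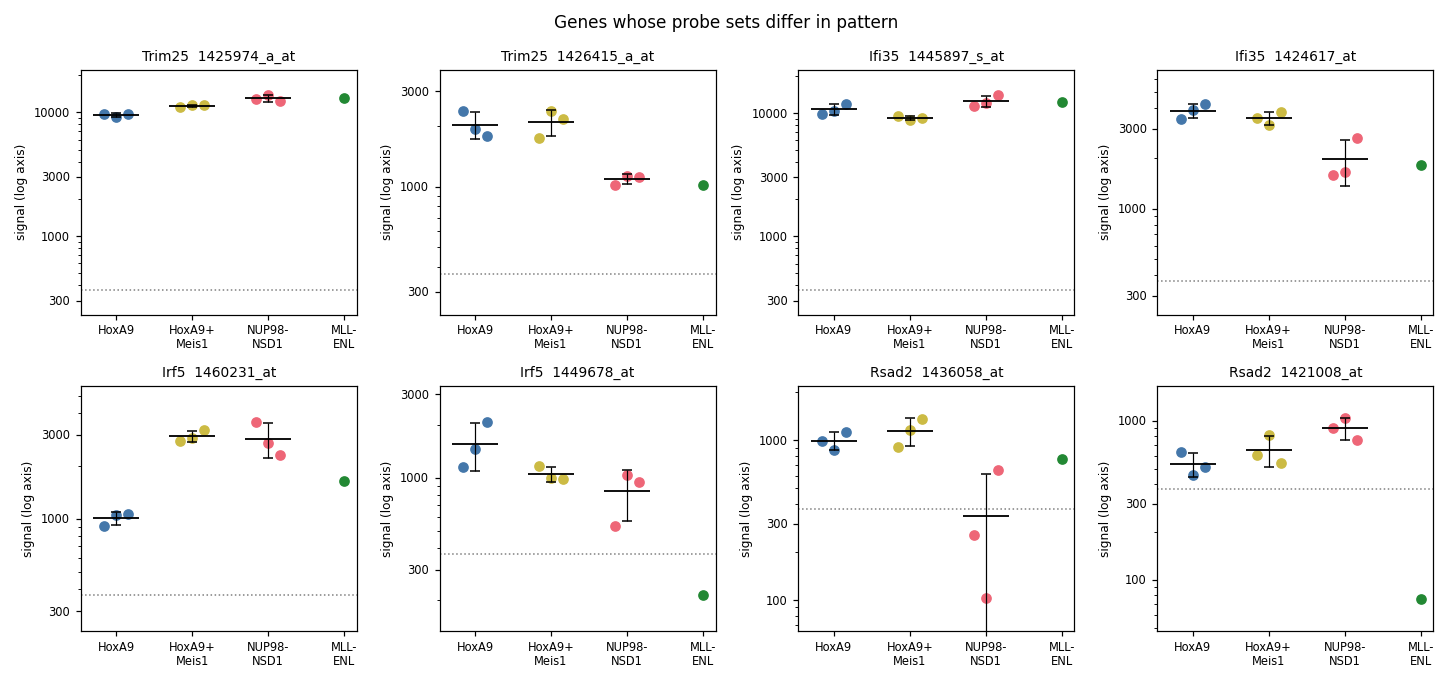
Deposited signal (log axis) by group for 2 probe sets each of Trim25, Ifi35, Irf5 and Rsad2: points are arrays, lines means and bars the SD of 3 clones; the lower end of the NUP98-NSD1 bar of Rsad2 1436058_at runs off the axis. In each gene the NUP98-NSD1 mean is above HoxA9 on the left probe set of a pair and below it on the other, or the reverse.

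The antigen processing members called in NUP98-NSD1 were all lower there. Of 6 kept probe sets of Psmb8, Psmb9 and Tap1, 4 were lower and 0 higher in NUP98-NSD1 than in HoxA9 (median log2 -0.97). Against HoxA9+Meis1, 4 were lower and 0 higher (median -1.22). The share called was 66.7% in both, beside 29.0% and 30.9% of all probe sets. By limma 0 of the 6 were called in HoxA9+Meis1 minus HoxA9 (1 at an unadjusted p under 0.05, median 0.01) and 0 in MLL-ENL minus NUP98-NSD1 (2 at an unadjusted p under 0.05, median 0.34). Over all probe sets the medians of the first 2 comparisons were -0.14 and -0.13.

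Tap1, a subunit of the pump that carries peptides into the endoplasmic reticulum, had signals on 1416016_at of 10744, 10916 and 9314 in the HoxA9 clones, 10512, 9997 and 8323 in the HoxA9+Meis1 clones, 3705, 3906 and 3520.3 in the NUP98-NSD1 clones and 4658 in MLL-ENL. The NUP98-NSD1 clones sat close together, at 3710.2 ± 193 (SD, n = 3) against 10324 ± 879.6 (SD, n = 3) in HoxA9 and 9611 ± 1145 (SD, n = 3) in HoxA9+Meis1. It fell 2.76-fold against HoxA9 (log2 -1.47, SE 0.12, adjusted p = 3.64e-05) and 2.57-fold against HoxA9+Meis1 (log2 -1.36, SE 0.12, adjusted p = 5.54e-05). On 1448177_at the signals were 853, 677 and 564 in the HoxA9 clones, 1293, 1087 and 777 in the HoxA9+Meis1 clones, 100.1, 88.1 and 142 in the NUP98-NSD1 clones and 354 in MLL-ENL. All NUP98-NSD1 and MLL-ENL arrays were below the filter on it, which makes NUP98-NSD1 at least 1.79-fold lower than HoxA9 (adjusted p = 0.000895) and at least 2.65-fold lower than HoxA9+Meis1 (adjusted p = 0.00026). The third probe set, 1449803_x_at, scattered within groups and was not called (-0.50 for NUP98-NSD1 minus HoxA9, 95% interval -2.16 to 1.16).

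Psmb9, an immunoproteasome subunit that shares the intergenic stretch with Tap1, had signals of 18278, 19287 and 20411 in the HoxA9 clones, 21980.3, 23001 and 18614 in the HoxA9+Meis1 clones, 8878, 10151 and 10794 in the NUP98-NSD1 clones and 12620.3 in MLL-ENL. It was 1.95-fold lower in NUP98-NSD1 than in HoxA9 (log2 -0.96, SE 0.11, adjusted p = 0.000192) and 2.13-fold lower than in HoxA9+Meis1 (log2 -1.09, SE 0.11, adjusted p = 0.000102). Psmb8, a further immunoproteasome subunit, had signals on 1422962_a_at of 29180.3, 26462 and 32281 in the HoxA9 clones, 35312, 40221 and 41985 in the HoxA9+Meis1 clones, 12114, 15868 and 17122 in the NUP98-NSD1 clones and 18248 in MLL-ENL. It was 1.96-fold lower than HoxA9 (log2 -0.97, SE 0.13, adjusted p = 0.000583) and 2.62-fold lower than HoxA9+Meis1 (log2 -1.39, SE 0.13, adjusted p = 8.34e-05). On the 4 called probe sets of Tap1, Psmb9 and Psmb8 the NUP98-NSD1 and MLL-ENL arrays were below the other 6. The dimmer Psmb8 probe set, 1444619_x_at, gave -0.41 against HoxA9 (adjusted p = 0.0839) and was called without NUP98-NSD1 clone 1 (-0.52).

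**Figure D5:**
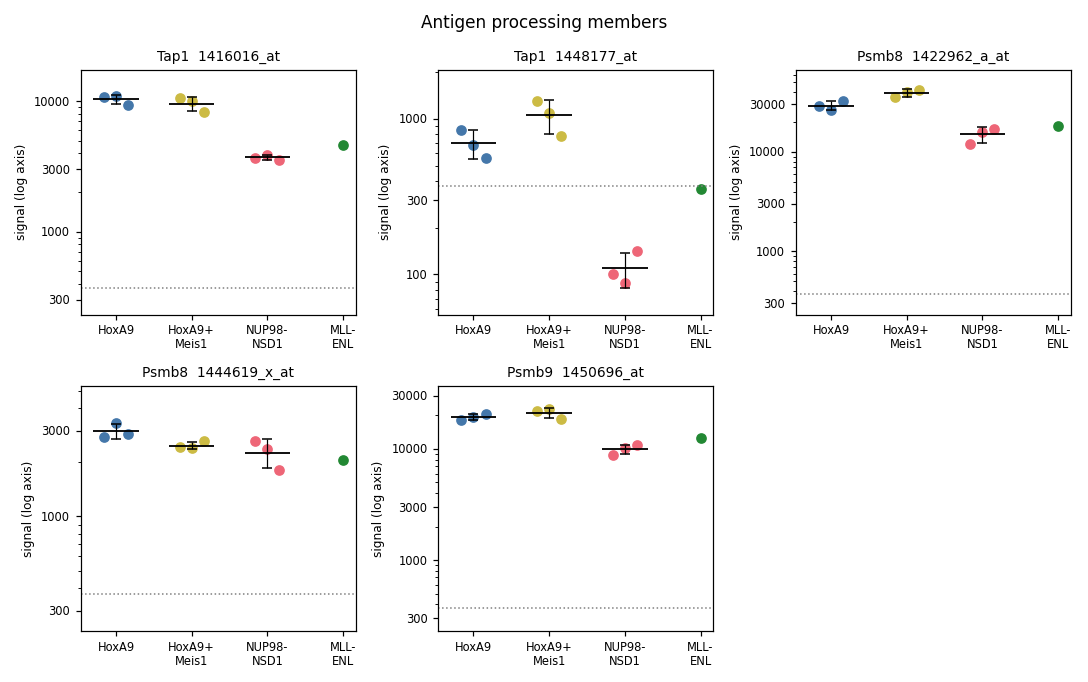
Deposited signal (log axis) by group for 2 probe sets of Tap1, 2 of Psmb8 and that of Psmb9: points are arrays, lines means, bars the SD of 3 clones, and the dotted line the filter level. NUP98-NSD1 lies below HoxA9 and HoxA9+Meis1 with no overlap on 4 of the 5, all but Psmb8 1444619_x_at.

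The interferon-inducible GTPases attack the vacuoles of intracellular microbes. Gbp3 had signals of 9901, 8489 and 8496 in the HoxA9 clones, 3243, 4168 and 3337 in the HoxA9+Meis1 clones, 1537, 1234 and 1807 in the NUP98-NSD1 clones and 7272 in MLL-ENL. The groups of clones did not overlap and ran from HoxA9 through HoxA9+Meis1 to NUP98-NSD1, with MLL-ENL between HoxA9+Meis1 and HoxA9. Its means were 8962 ± 813, 3582 ± 509 and 1526 ± 287 (SD, n = 3 each). Gbp3 fell 5.82-fold in NUP98-NSD1 against HoxA9 (log2 -2.54, SE 0.16, adjusted p = 1.31e-05), 2.33-fold against HoxA9+Meis1 (log2 -1.22, SE 0.16, adjusted p = 0.000487) and 2.5-fold in HoxA9+Meis1 against HoxA9 (log2 -1.32, SE 0.16, adjusted p = 0.00092). MLL-ENL was 4.74-fold above NUP98-NSD1 (log2 2.25, SE 0.23, adjusted p = 0.00133). These 4 calls held without each clone in turn. Gbp3 has close relatives, and whether its probes also read them was not tested.

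Igtp (Irgm3) had signals of 687, 1375 and 1969.7 in the HoxA9 clones, 1732, 2198 and 1643 in the HoxA9+Meis1 clones, 2809.5, 3156 and 2499.6 in the NUP98-NSD1 clones and 1952 in MLL-ENL. NUP98-NSD1 was highest and rose 2.24-fold against HoxA9 (log2 1.17, SE 0.31, adjusted p = 0.0192), a call lost without NUP98-NSD1 clone 2 (1.08); HoxA9 clone 1 was the lowest array. Irgm1, which acts with it on autophagy, had signals of 3716, 3791 and 4485 in the HoxA9 clones, 3961, 4691 and 3949 in the HoxA9+Meis1 clones, 4703, 5497 and 4364 in the NUP98-NSD1 clones and 4203 in MLL-ENL and was not called, at 0.28 for NUP98-NSD1 minus HoxA9 (95% interval -0.02 to 0.58, adjusted p = 0.148). Gbp2 was above the filter on 5 arrays and was not called in any comparison.

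MLL-ENL lay both above and below the clones of each group. Its signal was above the range of the HoxA9 clones for 17 members, below it for 20 and within it for 16, where 26.3%, 48.5% and 25.3% of all probe sets lay. Against HoxA9+Meis1 these counts were 20, 20 and 13, beside 28.8%, 48.3% and 22.8% of all. Against NUP98-NSD1, whose array set it shares, they were 18, 15 and 20, beside 22.9%, 33.7% and 43.4%. For its tests this lone array takes its spread from the clones of the replicated groups, and 3.98% of all probe sets were called between it and NUP98-NSD1. Across the 2 array sets, the 4 NUP98-NSD1 and MLL-ENL arrays were all above the other 6 for 5 members (Adar 1439276_at, both called Eif2ak2 probe sets, Irf2 and Trim25 1425974_a_at) and all below for 9. Together these were 14 members, and over all probe sets the shares were 8.27% above, 14.2% below and 22.4% in all.

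Among the clones of a group, HoxA9 clone 3 was the highest of its group for 33 of the 53 members (62.3%), beside 35.9% of all kept probe sets, and HoxA9 clone 1 was the lowest for 30 (56.6%, beside 35.0%). In NUP98-NSD1, clone 1 was highest for 8 (15.1%, beside 39.7%). The median SD of a member among 3 clones on the log2 scale was 0.24 in HoxA9, 0.23 in HoxA9+Meis1 and 0.26 in NUP98-NSD1, beside 0.21, 0.21 and 0.32 over all probe sets. The largest were 1.47 for Oas2 in HoxA9, 1.56 for Tap1 1449803_x_at in HoxA9+Meis1 and 1.17 for Rsad2 1436058_at in NUP98-NSD1.

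Other genes of the pathway were read from 4 further lists. Of receptors and their signalling partners (36 probe sets of 16 genes), 8 were higher and 6 lower in NUP98-NSD1 than in HoxA9 (38.9%, beside 29.0% of all probe sets), and 10 and 5 against HoxA9+Meis1 (41.7%, beside 30.9%; 6 higher without HoxA9+Meis1 clone 2). HoxA9+Meis1 had 0 higher and 1 lower than HoxA9 (2.78%, beside 6.89%), Ifngr1, a chain of the interferon gamma receptor (log2 -1.55, SE 0.18, adjusted p = 0.000655). MLL-ENL had 5 higher than NUP98-NSD1 and 0 lower (13.9%, beside 3.98%); without NUP98-NSD1 clone 2 this was 1 higher, and without clone 3 it was 7 and 4. Of further sensors, adaptors and interferons (36 probe sets, 18 genes), 5 were higher and 6 lower in NUP98-NSD1 than in HoxA9 (30.6%, near the share of all; 1 and 3 without HoxA9 clone 1), and 8 each way against HoxA9+Meis1 (44.4%; 4 lower without HoxA9+Meis1 clone 1). HoxA9+Meis1 had 2 higher and 4 lower than HoxA9 (16.7%), and MLL-ENL 1 higher than NUP98-NSD1 (2.78%; 0 without NUP98-NSD1 clone 1). The median log2 differences of both lists lay between -0.25 and 0.26.

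Of other interferon-stimulated genes (60 probe sets, 36 genes), 15 were higher and 7 lower in NUP98-NSD1 than in HoxA9 (36.7%, beside 29.0% of all; 10 and 4 without HoxA9 clone 2), and 13 and 6 against HoxA9+Meis1 (31.7%, beside 30.9%; 2 lower without HoxA9+Meis1 clone 1). The medians were 0.21 and 0.45. Ifi44l, kept only through the NUP98-NSD1 arrays, and Ifit1bl1, not kept without them, are among the 60. They were not taken out of these counts, shares and medians. HoxA9+Meis1 had 4 each way against HoxA9 (13.3%, beside 6.89%; 1 higher without HoxA9 clone 1, 2 lower without HoxA9+Meis1 clone 2). MLL-ENL had 4 lower than NUP98-NSD1 (6.67%, beside 3.98%; 0 without NUP98-NSD1 clone 2).

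Up to 4 genes of these lists with the largest changes are named for each comparison, and a log2 value printed beside a fold of "at least" is the fitted difference from values below the filter, which is no bound. Ifi202b, of a family that binds DNA, was below the filter in HoxA9 and at 2742 ± 551 (SD, n = 3) in NUP98-NSD1, at least 6.82-fold higher (log2 4.39, SE 0.63, adjusted p = 0.000807; 3.72 without HoxA9 clone 1). In HoxA9+Meis1 it was at least 2.19-fold higher than in HoxA9 (log2 2.75, SE 0.63, adjusted p = 0.0252), a call lost without HoxA9 clone 1 (2.08), HoxA9 clone 3 (2.89), HoxA9+Meis1 clone 1 (2.64) or HoxA9+Meis1 clone 2 (2.29). Ifi44l was above the filter on the 3 NUP98-NSD1 arrays and on 0 of the others, so it was kept through the group where it is high, and it is given without a test: its mean was 636 ± 11.5 (SD, n = 3) there, at least 1.66-fold above the filter level that the other arrays did not reach. Ifit1bl1 was above the filter on 2 NUP98-NSD1 arrays and 1 HoxA9+Meis1 array, the fewest with which a probe set is kept. Without the NUP98-NSD1 arrays it would not have been kept, so it is also given without a test. It was at least 1.29-fold higher in NUP98-NSD1 than in HoxA9, where all arrays were below the filter. Lgals3bp rose 6.28-fold in NUP98-NSD1 against HoxA9 (log2 2.65, SE 0.45, adjusted p = 0.00199), and by 3.31 on the log2 scale without HoxA9 clone 3.

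Parp12, an ADP-ribosyltransferase, was below the filter in HoxA9+Meis1, at least 2.36-fold lower than in HoxA9 (log2 -3.24, SE 0.56, adjusted p = 0.00661; -3.94 without HoxA9+Meis1 clone 3) and at least 3.78-fold lower than in NUP98-NSD1 (log2 3.92, SE 0.56, adjusted p = 0.000732 for NUP98-NSD1 minus HoxA9+Meis1; 4.62 without HoxA9+Meis1 clone 3). Tlr4, the receptor for bacterial lipopolysaccharide, had means of 3042 ± 209.8 in HoxA9, 474 ± 142 in HoxA9+Meis1 and 4527 ± 1413 in NUP98-NSD1 (SD, n = 3 each) on 1418162_at, the probe set with the largest change; its other 2 were called in the same directions. There it fell 6.25-fold in HoxA9+Meis1 against HoxA9 (log2 -2.64, SE 0.26, adjusted p = 0.000235) and was 9.02-fold higher in NUP98-NSD1 than in HoxA9+Meis1 (log2 3.17, SE 0.26, adjusted p = 4.14e-05). Sting1, the adaptor of the DNA sensing pathway, rose 3.59-fold in HoxA9+Meis1 against HoxA9 on 1447621_s_at (log2 1.84, SE 0.26, adjusted p = 0.00227); its brighter probe set, 1427911_at, gave 0.55 with overlapping clones and was not called (adjusted p = 0.255). Pml, which builds nuclear bodies, was 4.02-fold higher in NUP98-NSD1 than in HoxA9+Meis1 on 1456103_at (log2 2.01, SE 0.25, adjusted p = 0.00033) and 1.94-fold higher on the brighter 1448757_at (log2 0.95, SE 0.18, adjusted p = 0.00306). In MLL-ENL, 3 further genes were lower than in NUP98-NSD1, each on its dimmest probe set, while their brighter ones were not called. Herc6 was at least 1.9-fold lower on 1453757_at (log2 -2.57, SE 0.61, adjusted p = 0.0453), and its 3 brighter probe sets gave -0.58, -0.40 and -0.40 (adjusted p = 0.558, 0.658 and 0.69). Sp110 was at least 1.79-fold lower on 1429562_at (log2 -2.20, SE 0.42, adjusted p = 0.0193), and its other 2 gave -1.11 and -0.64 (adjusted p = 0.132 and 0.295). Pdia3, a chaperone of the peptide-loading complex, was at least 1.69-fold lower on 1445330_at (log2 -1.94, SE 0.42, adjusted p = 0.0306) and 0.04 on the brighter 1423423_at (adjusted p = 0.889). These calls were lost without NUP98-NSD1 clone 1 (-2.36) or NUP98-NSD1 clone 2 (-2.76) for Herc6, without NUP98-NSD1 clone 2 (-2.13) for Sp110 and without NUP98-NSD1 clone 2 (-1.99) for Pdia3. Pml was also lower in MLL-ENL than in NUP98-NSD1 on 1456103_at (log2 -1.51), a call lost without NUP98-NSD1 clone 1 (-1.43) or clone 2 (-1.48).

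The remaining genes of antigen processing and class I (31 probe sets of 13 genes) had 17 lower and 5 higher in NUP98-NSD1 than in HoxA9 (71.0%, beside 29.0% of all), with a median log2 difference of -0.66, and 21 lower and 5 higher than in HoxA9+Meis1 (83.9%, beside 30.9%), with a median of -0.47. HoxA9+Meis1 had 3 higher and 2 lower than HoxA9 (16.1%, beside 6.89%; 1 higher without HoxA9 clone 1, 0 lower without HoxA9+Meis1 clone 2). MLL-ENL had 2 higher and 1 lower than NUP98-NSD1 (9.68%, beside 3.98%; 0 and 0 without NUP98-NSD1 clone 2, 10 higher without clone 3). Among them Tap2 and Nlrc5 were picked after their values had been seen. Tap2, the partner of Tap1 in the pump, was 18915 ± 3244 in HoxA9, 11545 ± 3426 in HoxA9+Meis1 and 7000.4 ± 338 in NUP98-NSD1 (SD, n = 3 each). It was 2.67-fold lower in NUP98-NSD1 than in HoxA9 (log2 -1.42, SE 0.19, adjusted p = 0.000575). Tap2 was also called lower in HoxA9+Meis1 than in HoxA9 (log2 -0.74), and in NUP98-NSD1 than in HoxA9+Meis1 (log2 -0.68). The former call was lost without HoxA9 clone 2 or 3 or HoxA9+Meis1 clone 1 or 2. The latter was lost without HoxA9+Meis1 clone 2 or 3 or NUP98-NSD1 clone 2 or 3. Nlrc5, the transactivator of class I genes, was 2.55-fold lower in NUP98-NSD1 than in HoxA9 (log2 -1.35, SE 0.33, adjusted p = 0.0121) and 3.18-fold lower than in HoxA9+Meis1 (log2 -1.67, SE 0.33, adjusted p = 0.00391). Several probe sets of this list, those of H2-D1 and H2-K1 among them, share probes with near-identical copies, so their calls are not separate genes.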

How the data were processed

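Total RNA of 10 cultures was hybridized to Affymetrix Mouse Genome 430 2.0 arrays, 1 culture per array, per the labels. The authors deposited linear intensities, 1 for each of 45101 probe sets (64 controls) on each array; the software behind these intensities is not given in the sources used here. Their trimmed mean is 2500.01 to 2500.02 on every array, so the values were used as scaled by the authors or their software. Symbols came from the platform annotation: 34945 probe sets carry 1 symbol, 932 several and 9160 none.

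Probe sets above the 40th percentile of all values (369.318) on at least 3 of 10 arrays were kept (30945), and log2(signal + 32) was fitted with limma 3.58.1 in R 4.3.3 (4 group means, eBayes with an intensity trend, 6 residual degrees of freedom, two-sided). A fold is the ratio of signal + 32 between groups; "at least" marks a lower bound, with the dim group, below the filter on each array, raised to the filter level. The fit was tested on simulated data. The members, the further lists and the tests were chosen with earlier results of these data known. Values on every array are given for the 6 largest rises and falls called per comparison, for genes whose called probe sets disagree and for the brightest probe set of 7 transcription factors, and up to 4 genes of the further lists are named per comparison; Irf5 and Rsad2 pairs, Ddx58, Oas2, Usp18, Ifit1, Bst2, Irgm1, Tap2 and Nlrc5 were added after their values were seen.

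Clones with the same number do not pair: the correlation of their deviations was -0.064 to 0.043 over 9 pairs, beside -0.054 to 0.051 over 18 pairs with different numbers. Alternatives were quantile normalization, arrays shifted to a common median, no filter, offsets of 1 and 100, the 60th percentile, 1 probe set per gene, probe sets with the suffix _x_at, _s_at or _a_at left out, no trend, a replicate block and each clone left out. Between arrays of 1 group the correlation was 0.9201 to 0.9584; the number of arrays limits the precision. Figures used Python 3.11.15 and matplotlib 3.10.9.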

Additional observations from a re-analysis of the deposited data

How the results depend on the processing

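Of the called members, 15 of 20 (NUP98-NSD1 against HoxA9), 16 of 21 (NUP98-NSD1 against HoxA9+Meis1), 5 of 6 (HoxA9+Meis1 against HoxA9) and 2 of 3 (MLL-ENL against NUP98-NSD1) were called under each alternative that tested them, and none changed sign. Over 60 named differences and 19 alternative settings, 830 of 880 values kept their direction and side of the threshold, 25 lost the call, 6 gained one and 19 changed sign. With 1 probe set per gene, the brightest, 7 members were lower than HoxA9 and 7 lower than HoxA9+Meis1, beside 18.2% of all in both. With probe sets of the suffixes _x_at, _s_at and _a_at left out, 1 member was higher in HoxA9+Meis1 than in HoxA9 (2.78% of all). None was higher in MLL-ENL than in NUP98-NSD1 (1.12% of all). Members lower in MLL-ENL numbered 1 with quantile normalization, a common median, an offset of 100, no filter, the 60th percentile or no trend (1.42% to 3.24% of all). They numbered 0 with 1 probe set per gene (2.98% of all). The cause was not tested. With each clone left out in turn, members higher in HoxA9+Meis1 than in HoxA9 numbered 2 to 4 (4 without HoxA9 clone 2), beside 1.72% to 2.82% of all. In MLL-ENL 1 to 2 were higher and 1 to 3 lower than in NUP98-NSD1, beside 0.617% to 3.32% and 1.5% to 5.85% of all. With the clone number as a replicate block, 9 were higher and 12 lower in NUP98-NSD1 than in HoxA9 (11.5% and 15.4% of all). Against HoxA9+Meis1 they were 10 and 11 (12.6% and 15.7%), and in HoxA9+Meis1 against HoxA9 2 and 5 (3.01% and 3.14%). The calls of Eif2ak2 1422006_at and Oas1a against HoxA9 and of Oas3 against HoxA9+Meis1 were lost with the block. The block is no pairing, as the deviations do not follow the numbers.

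Values that changed sign had no call as reported. For NUP98-NSD1 minus HoxA9, Irf7 was 0.00 with quantile normalization and 0.11 with a common median. Without 1 clone, Irf1 ran from -0.01 to 0.13, Irf7 from -0.38 to 0.15, Irf8 1416714_at from -1.13 to 0.24 and Stat2 1450403_at from -0.11 to 0.24. For NUP98-NSD1 minus HoxA9+Meis1, Irf5 1460231_at was 0.09 with a common median and ran from -0.23 to 0.08 without 1 clone, and Irf7 ran from -0.17 to 0.35. For HoxA9+Meis1 minus HoxA9, Irf7 ran from -0.35 to 0.02 and Irf9 from -0.15 to 0.26. For MLL-ENL minus NUP98-NSD1 with a common median, Irf2 was 0.20, Irf9 0.01 and Stat2 0.03. Dim members are the least certain: 14 of the 53 were not above the filter on all 10 arrays.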
